A study of Homo sapiens with 6 samples.

Results

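Genes of the mRNA decay machinery were examined in MDA-MB-231 cells, a line derived from a triple-negative, claudin-low breast cancer. The set was chosen by gene symbol from 4 branches of the pathway: deadenylation (17 genes), decapping with 5′ to 3′ decay (19 genes), the RNA exosome (13 genes) and nonsense-mediated decay, NMD (9 genes). Of the 58 genes named, 57 had a row among the 15917 genes of the table. *BTG2*, one of the antiproliferative factors of the deadenylation group, had no row, which left 16 genes in that group.

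Most cytoplasmic mRNAs are thought to be degraded in an ordered way. The poly(A) tail is shortened first by the PAN2-PAN3 and CCR4-NOT deadenylases, after which the cap is removed by DCP2 and the body is degraded from the 5′ end by XRN1, or the RNA is degraded from the 3′ end by the exosome. NMD recognizes mRNAs on which translation ends early and feeds them into the same nucleases through UPF1 and the SMG proteins.

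The series held 6 total RNA libraries, 2 for each of 3 groups. The shCTRL cells expressed a control hairpin and are labeled wild type, and the shRBMS3-B3 and shRBMS3-C3 cells expressed 1 of 2 hairpins against *RBMS3*, which encodes an RNA-binding protein that the study connects with mRNA stability. All groups were the same cell line grown in the same medium. Per the study's methods, the hairpins were carried by a lentiviral plasmid with puromycin selection, and luciferase-labeled MDA-MB-231 cells were transduced. A scramble form of this plasmid is named there as negative control. The methods do not say whether the shCTRL cells of this experiment carried it. The question of the series was which transcripts respond to loss of RBMS3.

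The level used here was the authors' mean normalized count of each gene, a single value pooled over libraries. It carries no spread between libraries and no information on which group a read came from, so no gene was compared between knockdown and control cells, and no test was run. Which libraries entered the mean is not stated with the table. A supplementary legend describes a comparison of duplicate knockdown with duplicate control samples and names no hairpin, so the mean may leave out one of the knockdown groups. The depth of the libraries is not given in the sources used here. The mean normalized count ran from 26.7 to 859682 with a median of 364, so genes of low expression were not listed. The cells showed the marker profile known for this line. *VIM* (mean normalized count 69335), *AXL* (35387), *CD44* (10047), *FN1* (6228) and *CAV1* (4947) were abundant. *GATA3* (171), *EPCAM* (107), the endothelial gene *PECAM1* (69.0) and *CDH1* (31.6) were low, and *ESR1*, *PGR*, *FOXA1* and the leukocyte gene *PTPRC* had no row. *KRT18* (12689) was abundant although it stood in the epithelial list. *RBMS3* itself had a mean normalized count of 272, and a pooled value cannot show the knockdown.

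RBMS3 was linked in the study to an AUA-containing sequence in 3′UTRs, here written NNATANA with A, G or T in the first place and A or T in the second and sixth places. The 3′UTRs of the decay genes were searched for these letters. The matches of the 4 genes with the most matches per kilobase (in 3′UTRs of at least 300 bases) are shown first, because they show which letters were counted. The 7 bases of each match stand in capitals between 11 bases on each side. Sequences are GENCODE release 44 transcripts, 5′ to 3′ in the sense of the mRNA, with T for U, and coordinates are GRCh38. All these sites lie in the 3′UTR.

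*EXOSC8*, on chromosome 13 (36998816 to 37025881, plus strand), encodes a subunit of the exosome core. Its 3′UTR of 315 bases held 3 matches.
EXOSC8 chr13:37009361-37009389: cgttttatactAAATAAAtatcaaactac
EXOSC8 chr13:37009421-37009449: aggtcacttccATATATAttatgtatagt
EXOSC8 chr13:37009535-37009563: gttgtgcttctGTATAAAgtttgtacatc

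*XRN2*, on chromosome 20 (21303331 to 21389825, plus strand), encodes the nuclear 5′ to 3′ exonuclease that acts in transcription termination. Its 3′UTR of 487 bases held 4 matches.
XRN2 chr20:21389414-21389442: gtagtagttttTAATAAAactacagtact
XRN2 chr20:21389541-21389569: tttattattgcTTATAAAacacatttgat
XRN2 chr20:21389710-21389738: agcaaactagaGTATATAttgttcagtat
XRN2 chr20:21389790-21389818: ttagtaaaaaaAAATAAAgttaaactttt

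*TOB1*, on chromosome 17 (50862223 to 50867978, minus strand), encodes a factor that brings CCR4-NOT to mRNAs. Of its 6 matches in 757 bases, 3 are shown, and the middle one belongs to a run of alternating A and T that was counted 3 times because overlapping matches were counted.
TOB1 chr17:50862835-50862863: taaaaaaataaTAATAAAacatgcatcat
TOB1 chr17:50862611-50862639: aatatcagaggATATATAtatattgtttc
TOB1 chr17:50862297-50862325: tgaaaaaaacgGTATAAAagtattttgag

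*CNOT2*, on chromosome 12 (70243002 to 70354993, plus strand), encodes a subunit of the NOT module of CCR4-NOT. Of its 7 matches in 1078 bases, 3 are shown. The last of them ends 18 bases before the annotated end of the transcript, the same distance as the last match of *XRN2*.
CNOT2 chr12:70354309-70354337: agcactattggTAATAAAataacaaatgt
CNOT2 chr12:70354643-70354671: tgtacgaatgtGTATATAttatatatatg
CNOT2 chr12:70354958-70354986: tcttctctttgTAATAAAgtagaaaagct

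The sites fall into 2 kinds that can be read from the letters. Some are the hexamer AATAAA with 1 base before it, and AATAAA is the canonical signal for polyadenylation. Any AATAAA preceded by A, G or T is a match by construction. Others do not contain the hexamer, such as the last 2 sites of *EXOSC8*.

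The decay genes were expressed at moderate to high levels. The mean normalized count of 55 of the 57 genes lay above the median of the table, and that of 19 genes lay above its upper quartile of 1034. Of the 15917 genes of the table, 12408 were annotated as protein-coding. Among protein-coding genes only, the median percentile of each branch was lower, as given in the last section. The median over the decay genes was 755. *TOB1* (328) and *DCP1B* (161) were the 2 genes below the median of the table. Together the 57 genes accounted for 0.327% of the summed mean normalized counts. A long transcript gives more reads than a short one at the same number of molecules, so levels of different genes were compared as mean normalized count per kilobase of the representative transcript, with the value per kilobase of coding sequence where it changes an order. The mean normalized count itself is given as the amount of evidence for each gene. Per kilobase of transcript the decay genes had a median of 333 per kilobase, beside 137 per kilobase over the table, and 46 of 57 lay above the median.

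**Figure D1:**
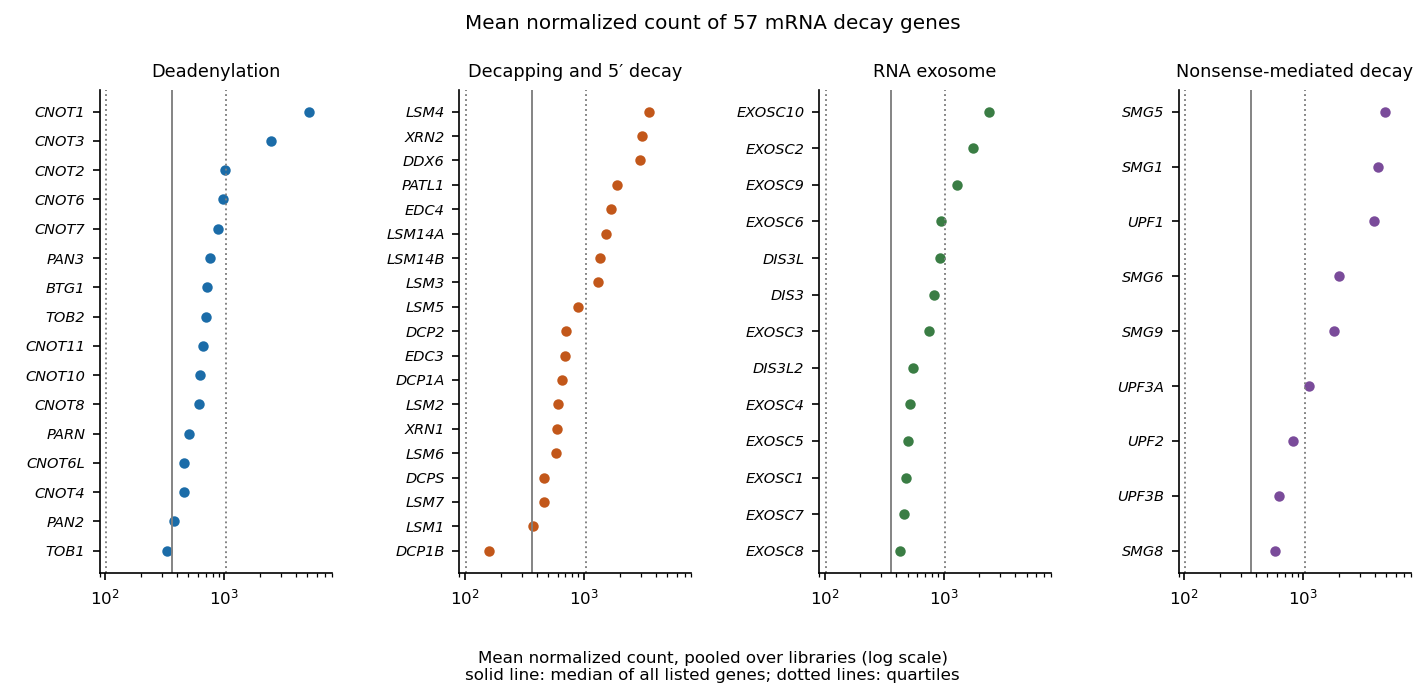
Mean normalized count of the 57 decay genes with a row (horizontal axis, log scale), 1 point per gene in a panel for each branch. The solid line is the median of all listed genes (364) and the dotted lines are the quartiles (102 and 1034). *TOB1* and *DCP1B* lie left of the solid line and the other 55 genes lie right of it.

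In the deadenylation group, the scaffold and the NOT module of CCR4-NOT were highest per kilobase of transcript, and *CNOT6L*, a catalytic subunit, was lowest. This order depended on the length used. Per kilobase of coding sequence *BTG1* (1399) was highest, and *CNOT7* (1032) lay above *CNOT1* (721). The group had a median of 159 per kilobase, close to the 137 of the table, and only 2 of its 16 genes lay above the table's upper quartile of 383 per kilobase. These were *CNOT3* (mean normalized count 2449, or 869 per kilobase), of the NOT module, and *CNOT1* (5141, or 611 per kilobase), the scaffold on which the complex is built. *CNOT2*, the partner of CNOT3, followed at 360 per kilobase (mean normalized count 1023). *CNOT11* (667, or 265 per kilobase) and *CNOT10* (629, or 227 per kilobase), which together bind the N-terminal region of CNOT1, were close to each other. *CNOT4*, a ubiquitin ligase associated with the complex, had 456, or 129 per kilobase.

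The complex carries 1 nuclease of each of 2 families, and each is encoded by a pair of paralogs. Of the pair with an endonuclease-exonuclease-phosphatase fold, *CNOT6* had a mean normalized count of 975 and *CNOT6L* one of 462. Per kilobase, *CNOT6* (157) was 2.98 times *CNOT6L* (52.6), and per kilobase of coding sequence it was 2.10 times as high, so the order did not depend on the length used. Of the DEDD-type pair, *CNOT7* had 882 and *CNOT8* had 618. Here the order turned with the length: *CNOT7* was 0.506 times *CNOT8* per kilobase of transcript (128 against 253) and 1.46 times *CNOT8* per kilobase of coding sequence (1032 against 706). The 3′UTR makes up 83.5% of the *CNOT7* transcript and 55.3% of that of *CNOT8*, and the values do not show which 3′UTR ends the cells used. Reads that could belong to either of 2 similar paralogs were divided by the authors' quantification, so values within such pairs are less certain than those of single genes.

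In the second deadenylase complex, the adaptor lay near the table's median per kilobase and the nuclease below it. *PAN2*, its nuclease, had a mean normalized count of 380, or 84.1 per kilobase, and *PAN3*, its adaptor, had 757, or 135 per kilobase. *PARN*, a poly(A)-specific ribonuclease that also trims small RNAs, had 508, or 165 per kilobase. All 3 genes lay below the upper quartile per kilobase. The BTG and TOB factors bind the CNOT7 and CNOT8 nucleases and are known for slowing proliferation. *BTG1* (mean normalized count 718), *TOB2* (703) and *TOB1* (328) lay within 1.10 times of each other per kilobase, at 155, 162 and 147. On the coding scale they ran from 1399 for *BTG1* to 317 for *TOB1*. *BTG1* shares exon sequence on its strand with a noncoding gene, *LINC01619*, which adds uncertainty to its value. A pseudogene copy of *TOB2* was listed at 5.97% of the mean normalized count of *TOB2*.

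In the decapping group, 14 of 19 genes lay above the table's median per kilobase and 11 above the upper quartile. The decapping enzyme and its DCP1 partners were below the median per kilobase of transcript. On the coding scale *DCP2* (559) and *DCP1A* (375) lay above the table's median of 363, and *DCP1B* (86.7) lay below it. *DCP2*, the enzyme that removes the cap, had a mean normalized count of 705, or 69.7 per kilobase of a 10.1-kb transcript, and 559 per kilobase of coding sequence, where it lay above the activators *EDC3* (457) and *EDC4* (401). *DCP1A*, its activating partner, had 654, or 110 per kilobase. *DCP1B*, the paralog of *DCP1A*, had a mean normalized count of 161, or 79.0 per kilobase. *DCP1A* was 1.40 times *DCP1B* per kilobase and 4.32 times per kilobase of coding sequence, so the size of this difference rested on the long 3′UTR of *DCP1A* (4151 bases, against 153 for *DCP1B*). *DCPS*, which hydrolyzes the cap left at the end of 3′ to 5′ decay, had 463, or 85.4 per kilobase.

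Among the proteins that promote decapping or hold mRNAs in P-bodies, *DDX6*, an RNA helicase, had a mean normalized count of 2952, or 482 per kilobase. *PATL1*, which connects deadenylation with decapping, had 1893, or 459 per kilobase. *EDC4*, the decapping scaffold, had 1687, or 354 per kilobase, and *EDC3* had 696, or 186 per kilobase. *EDC4* shares exon sequence on its strand with another annotated gene. The paralogs *LSM14A* (1519) and *LSM14B* (1356), which bind DDX6, differed little, with *LSM14B* 1.19 times *LSM14A* per kilobase (526 against 443) and 1.07 times per kilobase of coding sequence.

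LSM1 to LSM7 form the ring that binds the shortened tail and promotes decapping. All 7 genes lay above the table's median per kilobase and 6 lay above the upper quartile. *LSM4* was the highest, with a mean normalized count of 3506 and 2057 per kilobase, and *LSM6* was the lowest per kilobase, with 582 and 262, a ratio of 7.86. *LSM7* (462, or 941 per kilobase) and *LSM2* (609, or 710 per kilobase) lay between them. *LSM1* (372, or 410 per kilobase), *LSM5* (895, or 404 per kilobase) and *LSM3* (1312, or 391 per kilobase) were close to each other on this scale, but had 932, 3277 and 4289 per kilobase of coding sequence. *LSM1* is the subunit that sets this ring apart from the nuclear ring, which holds LSM8 in its place and binds U6 small nuclear RNA. The other six are shared, so their transcripts serve both rings. *LSM4* stayed first on each length scale, but on the coding scale *LSM1* was the lowest (932 per kilobase). The table also listed 3 pseudogene copies of *LSM3*, whose mean normalized counts summed to 24.1% of that of *LSM3*.

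The 2 exonucleases of 5′ to 3′ decay differed widely. *XRN2*, the nuclear enzyme, had a mean normalized count of 3086, or 906 per kilobase. *XRN1*, the cytoplasmic enzyme that completes decay after decapping, had 591, or 58.6 per kilobase. *XRN2* was 15.4 times *XRN1* per kilobase and 9.31 times per kilobase of coding sequence.

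In the exosome group, 12 of 13 genes lay above the table's median per kilobase and 8 above the upper quartile. The 9 genes of the core, a ring that has no catalytic activity of its own in humans and binds the nucleases, all lay above the median and varied by 4.82 times, less than the 7.86 of the LSM ring and the 16.5 of CCR4-NOT. *EXOSC2* (mean normalized count 1778, or 884 per kilobase), one of the cap subunits that bind RNA, was highest on the transcript and coding scales. *EXOSC9* followed (1296, or 817 per kilobase), then *EXOSC4* (523, or 621 per kilobase), *EXOSC5* (505, or 506 per kilobase) and *EXOSC7* (466, or 447 per kilobase), all subunits of the hexameric ring. *EXOSC1* (481, or 420 per kilobase) and *EXOSC3* (755, or 416 per kilobase), the other cap subunits, had almost the same level. *EXOSC8* had 432, or 371 per kilobase. *EXOSC6* was lowest per kilobase of transcript (947, or 183 per kilobase) and second per kilobase of coding sequence (1161), since its 3′UTR makes up 83.4% of the transcript. *EXOSC3*, *EXOSC4* and *EXOSC7* each share exon sequence on their strand with another annotated gene.

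The nucleases that work with the core differed in level. *EXOSC10*, found mainly in the nucleus and nucleolus, had a mean normalized count of 2408, or 861 per kilobase. *DIS3*, the main processive nuclease of the nuclear exosome, had 835, or 79.0 per kilobase of a 10.6-kb transcript, and *EXOSC10* was 10.9 times as high on this scale but 3.12 times per kilobase of coding sequence. *DIS3L*, the cytoplasmic counterpart of DIS3, had 927, or 245 per kilobase. *DIS3L* was 3.11 times *DIS3* per kilobase of transcript and 1.01 times per kilobase of coding sequence, so their order cannot be told from these values. *DIS3L2*, which degrades uridylated RNAs without the exosome, had 549, or 163 per kilobase.

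All 9 NMD genes lay above the table's median per kilobase of transcript. On the coding scale *UPF2* (216) and *SMG8* (195) lay below the table's median of 363, and the other NMD genes above it. Per kilobase of transcript 3 NMD genes lay above the upper quartile, beside 8 of 13 exosome, 11 of 19 decapping and 2 of 16 deadenylation genes. By mean normalized count 6 of the 9 lay above the upper quartile, with a median transcript length of 5168 bases. *UPF1*, the helicase at the center of the pathway, had a mean normalized count of 3961, or 744 per kilobase. *UPF2*, which bridges UPF1 to UPF3, had 824, or 159 per kilobase, so *UPF1* was 4.67 times *UPF2* per kilobase. Of the UPF3 paralogs, which connect NMD with the exon junction complex, *UPF3A* (1119, or 472 per kilobase) was 1.76 times *UPF3B* (628, or 268 per kilobase), and 1.81 times on the coding scale. *UPF3A* is known as the weaker activator of the pair.

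Among the SMG genes, *SMG5*, an adaptor that binds phosphorylated UPF1 and recruits decay enzymes, was highest (mean normalized count 4834, or 1060 per kilobase). *SMG6*, the endonuclease of the pathway, had 1996, or 334 per kilobase, and *SMG5* was 3.17 times as high. *SMG1*, the kinase that phosphorylates UPF1, had a large mean normalized count (4228) that came with a transcript of 16.1 kb, and per kilobase it had 263. Its partners in the kinase complex, *SMG9* (1831, or 333 per kilobase) and *SMG8* (579, or 180 per kilobase), lay on either side of it. Per kilobase of coding sequence *SMG9* (1173.5) lay above *SMG6* (469), though the 2 were level per kilobase of transcript. The value of *SMG1* is uncertain, because 7 partial pseudogene copies of the gene were listed. Their mean normalized counts summed to 3389, or 80.2% of that of *SMG1*, with *SMG1P1* at 1357 and *SMG1P3* at 1347, and reads from shared exons could have been assigned to either. *SMG8* shares exon sequence with another gene on its strand.

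**Figure D2:**
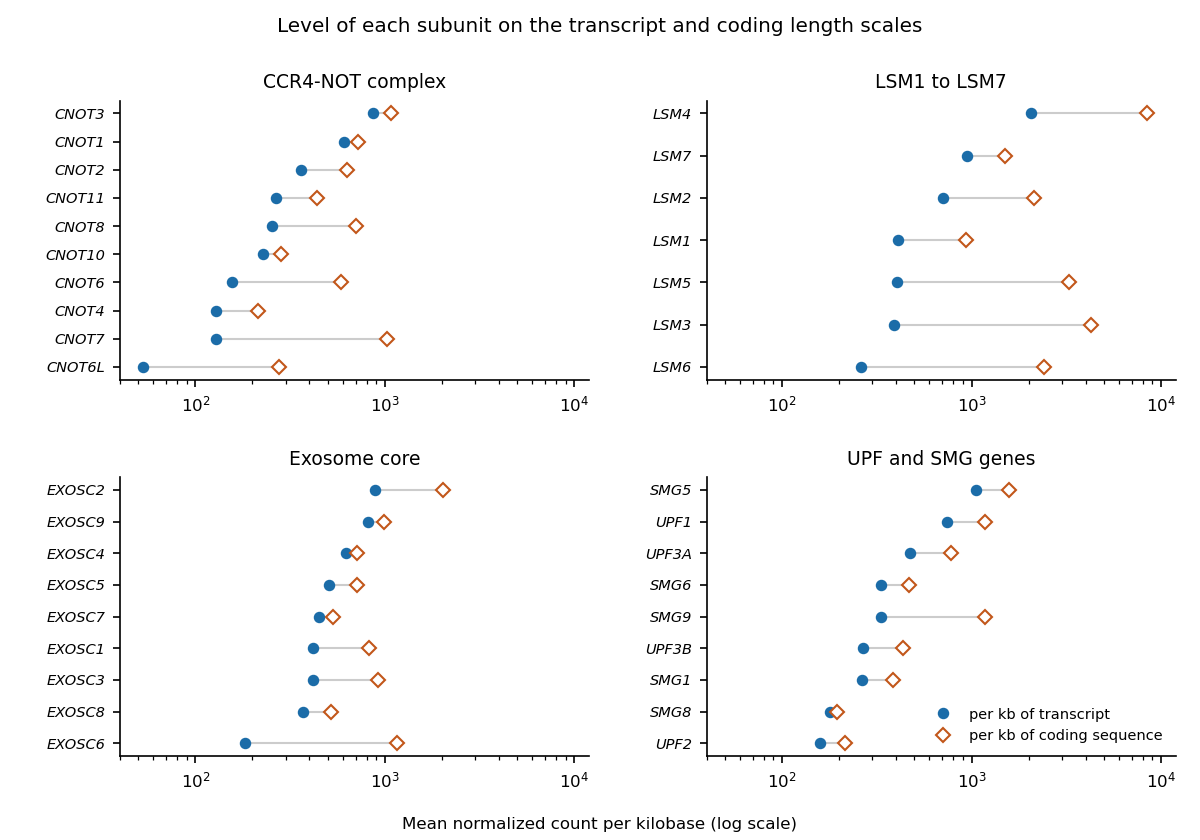
Level of each subunit in 4 groups of decay genes as mean normalized count per kilobase (log scale), with filled circles for the representative transcript length and open diamonds for the coding length. Genes run from the highest to the lowest value on the transcript scale. *CNOT7*, *LSM3* and *EXOSC6* have long gaps between the symbols, and *EXOSC6* moves from the lowest place in the core (183) to the second (1161).

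The 49 other genes of the pathway, listed for comparison, all had a row. Of these, 30 lay above the median per kilobase and 14 above the upper quartile, with a median of 187 per kilobase. *PABPC1*, which encodes the main cytoplasmic protein bound to the poly(A) tail that deadenylases shorten, had a mean normalized count of 17834, or 6233 per kilobase. *CNOT9*, listed under its older symbol *RQCD1*, had 1039, or 272 per kilobase, between *CNOT2* and *CNOT11*. *LSM8*, which replaces LSM1 in the nuclear ring, had a mean normalized count of 444, above the 372 of *LSM1*. Per kilobase of transcript the order turned, with 35.8 for *LSM8* and 410 for *LSM1*. The representative transcript of *LSM8* is 12.4 kb long, so the order of *LSM8* and *LSM1* cannot be told from these values.

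The 3′UTRs of the decay genes varied from 47 bases in *EXOSC4* to 8711 bases in *DCP2*, with a median of 1118, beside 1378 over the 12350 listed genes with a 3′UTR of at least 7 bases. The median share of A and U was 60.8%, beside 57.9%. In 22 of the 57 genes (38.6%, beside 42.8% of all genes) the 3′UTR was longer than the rest of the transcript. The paralogs of a pair often differed in it. *CNOT7* had 5754 bases and *CNOT8* 1353, *DCP1A* 4151 and *DCP1B* 153, *XRN1* 4901 and *XRN2* 487, and *DIS3* 7626 and *DIS3L* 586.

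The AUA element was present in 53 of 57 decay genes (93.0%), beside 84.8% of the 12350 listed genes. Among listed genes weighted over 5 bins of 3′UTR length as the decay genes fall into them, the share was 83.6%. The 4 genes with no match were *DCP1B*, *EXOSC5*, *EXOSC10* and *UPF3B*. In all, 322 matches were counted, with a median of 3 in a gene, the same median as over all genes. The 5 genes with most matches were *DIS3* (39), *CNOT6L* (28), *CNOT7* (26), *DCP2* (22) and *DDX6* (18), and they held 41.3% of the matches of the whole set. Spearman's correlation between 3′UTR length and the number of matches was 0.738 across the 57 genes and 0.717 across all 12350, given as descriptions only, since a longer sequence has more places for a match and genes are not independent replicates. Among the 13 genes with the longest 3′UTRs, the fewest matches for its length were in *SMG9*, with 3 matches in 3613 bases, followed by *SMG1*, with 5 in 4709.

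**Figure D3:**
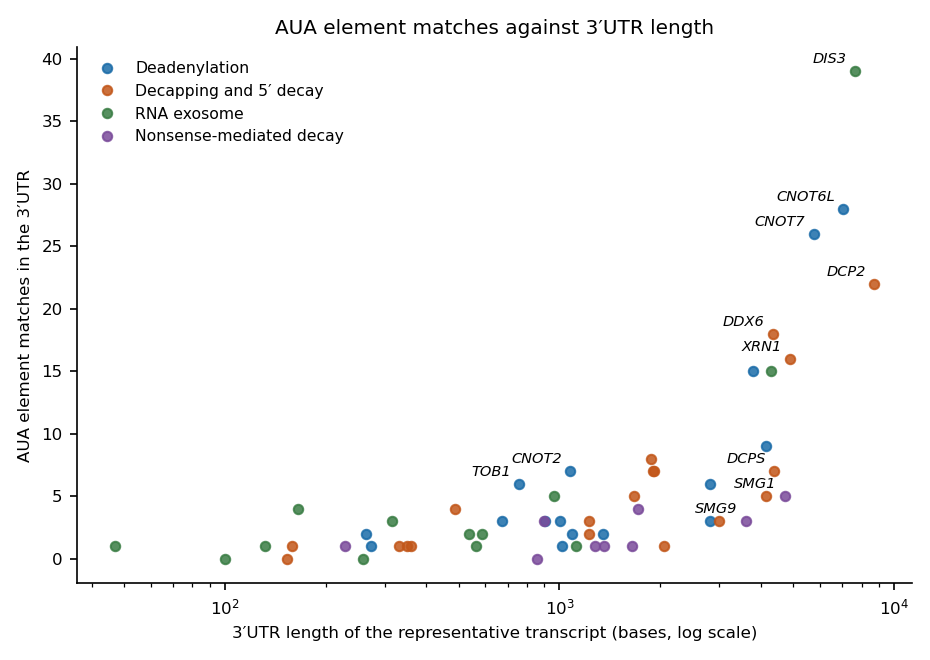
Number of AUA element matches (vertical axis) against the 3′UTR length of the representative transcript in bases (horizontal axis, log scale) for the 57 decay genes, colored by branch. *DIS3* (39 matches in 7626 bases) and *CNOT6L* (28 in 7044) are highest, while *DCP2*, with the longest 3′UTR (8711 bases), has 22, and *SMG1*, *SMG9* and *DCPS* lie low for their length.

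Many of the matches were the polyadenylation signal. The study itself names this hexamer as the top motif among the RBMS3-binding sites it mapped, so the split below does not separate bound from unbound sites. Of the 322 matches, 115 (35.7%) contained AATAAA, beside 36.0% of the 71509 matches over all genes. Matches that did not overlap AATAAA at all numbered 203 and were found in 33 of the 57 genes (57.9%), beside 61.7% of all listed genes and 59.5% over the same bins of 3′UTR length. In 20 genes every match overlapped the hexamer (35.1%, beside 23.1%). Of the 15 genes with a single match, that match was the hexamer with the base before it in 14, and the exception was *EXOSC7*. The share of genes with the element was thus above that of all genes when the hexamer was counted, and below it when the hexamer was left out, differences on which no test was made. In 41 of the 57 genes (71.9%, beside 65.9% of all genes) an AATAAA ended within 40 bases of the annotated end of the transcript.

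The letter before the hexamer decided some of the counts. *DDX6* had an AATAAA near its transcript end that was not a match, and all its 18 matches were apart from the hexamer. *EXOSC5* and *UPF3B* also had an AATAAA near the end and no match, and the base before it was not A, G or T. *PATL1*, in contrast, had 5 matches and all 5 contained AATAAA, as did all 4 matches of *UPF1* and all 3 of *LSM4*.

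**Figure D4:**
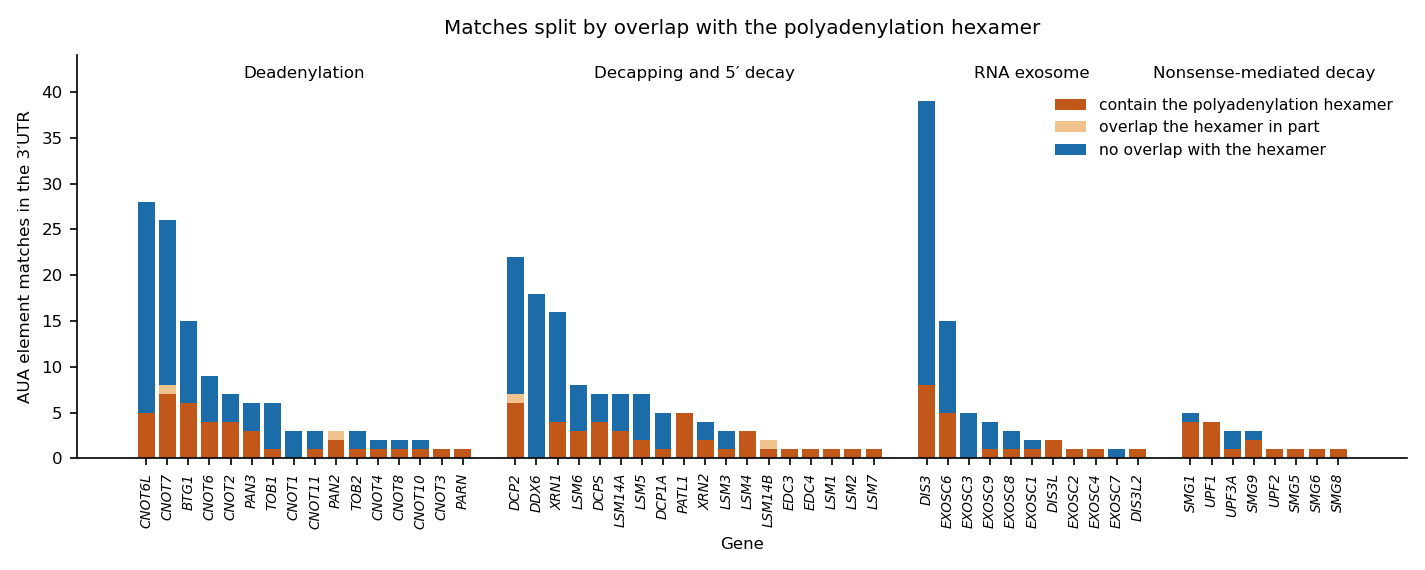
AUA element matches in the 3′UTR of the 53 decay genes with at least 1 match, 1 bar per gene within each branch, split into matches that contain the polyadenylation hexamer AATAAA, overlap it in part, or do not overlap it. *DIS3* has 31 matches and *CNOT6L* 23 that do not overlap the hexamer, whereas most bars of the NMD branch hold none.

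The counts by branch are given beside the 61.7% of all listed genes that had a match apart from the hexamer. That share was not matched to the 3′UTR lengths of each branch. Over all listed genes it ran from 19.0% in the bin of the shortest 3′UTRs to 94.5% in that of the longest. The median 3′UTR had 1084 bases in deadenylation, 1879 in decapping, 536 in exosome and 1363 in NMD genes. Whether a branch lay above or below genes of like 3′UTR length therefore cannot be read from these shares. In the deadenylation group all 16 genes had a match and 13 (81.2%) had one apart from the hexamer, 76 such matches in all, led by *CNOT6L* (23), *CNOT7* (18) and *BTG1* (9). In the decapping group 18 of 19 genes had a match and 10 (52.6%) had one apart from the hexamer, 70 in all, led by *DDX6* (18), *DCP2* (15) and *XRN1* (12). In the exosome group 11 of 13 genes had a match and 7 (53.8%) had one apart from the hexamer, 53 in all, 31 of them in *DIS3* and 10 in *EXOSC6*. In the NMD group 8 of 9 genes had a match, and 3 genes (33.3%), *UPF3A* (2), *SMG1* (1) and *SMG9* (1), held the 4 matches apart from the hexamer. The median number of matches per kilobase was 0.830 in the NMD genes, beside 2.43 over all genes, and 3.49, 2.85 and 3.73 in the deadenylation, decapping and exosome groups. The NMD genes were not uniformly low. *SMG8* (4.39) and *UPF3A* (3.33) lay above the median of all genes, *UPF1* (2.34) lay close to it, and the others were lower. The share of A and U in the 3′UTRs of the NMD genes had a median of 59.6%, beside 57.9% over all genes. Its median was 63.8% in the deadenylation, 59.7% in the decapping and 60.3% in the exosome group. Among the NMD genes the share was 39.99% in *SMG5*, 41.2% in *SMG6*, 42.5% in *UPF1* and 46.8% in *SMG9*. The rest ran from 59.6% in *UPF2* to 68.4% in *SMG8*. *UPF2*, with 1 match in 1276 bases, *SMG1*, at 62.1%, and *UPF3B*, with no match in 856 bases at 61.1%, had few or no matches without a low share. The part of base composition in the counts was not tested. Across all listed genes the Spearman correlation between the share of A and U and matches per kilobase was 0.577, and across the 57 decay genes it was 0.497.

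Within the 5 bins of 3′UTR length, the counts lay on both sides of those of all genes. A match apart from the hexamer was found in 4 of 14 decay genes in the bin of the shortest 3′UTRs (19.0% of all genes), 6 of 10 in the next (44.1%), 4 of 13 in the middle bin, from 984 to 1851 bases (66.8%), and 6 of 7 in the next (84.1%). The 4 of the middle bin were *CNOT1*, *CNOT2*, *CNOT4* and *CNOT8*, all of CCR4-NOT, and were named after their values were seen. In the bin of the longest 3′UTRs, from 3304 bases, all 13 decay genes had a match apart from the hexamer, beside 94.5% of all genes.

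RefSeq promoters (250 bases before to 50 after the start) were matched by symbol for 49 of the 57 genes. Their median G and C content was 65.7%, beside 65.3% over 10063 listed protein-coding genes with a promoter. On either strand, TATAAA was found in 2 of 49 (4.08%, beside 5.52% of all), those of *BTG1* and *EXOSC8*. CCAAT was found in 20 (40.8%, beside 37.0%), CCGGAAG in 8 (16.3%, beside 19.8%), GGGCGG in 39 (79.6%, beside 70.7%) and CGCATGCG in 3 (6.12%, beside 3.84%). These shares are counts of letters in a fixed window and are no evidence of binding.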

How the data were processed

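Total RNA of 6 libraries was prepared with a stranded, ribosome-depleted kit. Per the labels, the submitters' processing notes name Salmon, DESeq2 and hg38, without versions. The signal values deposited by the authors are mean normalized counts per gene, scaled for library size and averaged over libraries before deposit. The 5 other value columns of the table hold the authors' own comparison of knockdown with control cells (fold change, standard error, statistic and p-values) and were not used, so the planned count test could not be made. There were 0 columns of values per library, and depth is unknown.

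Of 15917 Ensembl identifiers, 15829 were found in GENCODE release 44. The representative transcript was the MANE Select one for all 57 genes, and for other genes the Ensembl canonical one, else that with the longest coding sequence. Element matches were counted with overlaps in the bases after the stop codon. The shown sites were read again from the genome and were equal. The counting was tested on simulated sequences. Python 3.11.15, pandas 2.3.3 and SciPy 1.17.1 were used. The members and lists were chosen with earlier results of these data known. By rule, every gene with a row is named, and sequences are shown for the 4 genes with most matches per kilobase, chromosome 8 left out. Paralogous protein sequences, also planned, were not used here. Results were recomputed with other lengths, backgrounds and element definitions.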

Additional observations from a re-analysis of the deposited data

How the results depend on the processing

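No paired analysis was possible because each gene has 1 value pooled over libraries. For the same reason leaving out a library, another normalization, a filter on low counts and a replicate block were not run. No spread between libraries can be given, so no difference between genes has an error. The median percentile of the mean normalized count, 65.6 for deadenylation, 66.3 for decapping, 67.8 for the exosome and 86.0 for NMD, depended on the length scale. Among protein-coding genes only it was 58.1, 59.0, 60.8 and 83.1 in that order. Per kilobase of transcript it was 53.9, 76.1, 76.9 and 72.0, so NMD lost its first place. Per kilobase of coding sequence it was 59.2, 78.3, 68.5 and 57.1. Without the BTG and TOB genes deadenylation had 65.0, and without *DIS3L2* the exosome had 69.0. With the upper quartile in place of the median of the table, 19 rather than 55 genes lay above it. The ratio of the highest to the lowest subunit of CCR4-NOT was 16.5, and it was 5.09 with the coding length and 11.7 with the longest transcript. That of the LSM ring was 7.86, 9.02 and 8.68, and that of the exosome core 4.82, 3.87 and 5.32. The median of the 57 genes was 2.07 times that of the table, and 2.44 times per kilobase. The share of decay genes with the element, 93.0%, was 91.2% in the longest annotated 3′UTR, 57.9% for matches apart from AATAAA and 56.1% for at least 3 matches. The share of all listed genes, 84.8%, was 83.6% at like 3′UTR lengths.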
